A study of Mus musculus with 165 samples.

Results

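The brain and the liver of the same young mice were compared, library against library within each mouse. The comparison held 30 libraries from 15 mice of 3 months, out of 165 libraries from 83 mice of 5 ages in the whole series. Members were the brain and liver libraries labelled 3 months that carried the same mouse number, from 1 to 16. Mouse 6 was left out because its liver had no brain partner among the libraries analysed here. Both groups came from male mice of the inbred strain C57BL/6J/Ukj that were held only to age, and the labels give them no treatment and no genotype beyond the strain. The labels name the tissues as brain and liver without a region or lobe. Every library was made from polyadenylated RNA with a stranded kit and read in pairs of 100 bases. The labels also put each library in 1 of 3 preparations of libraries, each with 5 of these mice, and both tissues of a mouse were in the same preparation.

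The brain is built from neurons, which signal through vesicles of transmitter and through receptors and ion channels, and from glia, among them astrocytes, myelinating oligodendrocytes and microglia. The liver consists mostly of hepatocytes, which make the plasma proteins, turn ammonia into urea, release glucose, and process fats, bile acids and foreign compounds. Kupffer cells (the resident macrophages), sinusoidal endothelium and stellate cells stand between the hepatocytes and the blood. Both tissues were sequenced whole, so a lower value can mean fewer cells of a type or less RNA per cell, and the 2 cannot be told apart in these data.

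Brain libraries held 30.4 to 69.9 M counts (M for 1000000; median 39.6) and liver libraries 24.3 to 45.1 M (median 31.4). A brain library had counts for 24736 to 26351 genes and a liver library for 19681 to 21238. The share of the counts held by the top 10 genes was 5.16% to 6.78% in brain libraries and 15.2% to 18.8% in liver libraries. Scaling factors for this difference in make-up (TMM) were 1.304 to 1.387 in the brain and 0.695 to 0.815 in the liver, so the zero point of every fold change below depends on them. Some libraries stood apart from the rest of their tissue. The livers of mice 10, 13, 15 and 16 lay at 33.8 to 40.2 on the first principal component of the livers (41.7% of the variance), against -20.7 to -9.4 in the other 11. The brains of mice 5, 15 and 4 held more RNA of choroid plexus genes than the other 12, those of mice 5 and 1 held pituitary hormone RNA, and the livers of mice 12 and 15 were high in acute-phase genes. Values for each are given beside the genes concerned.

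The labelled tissues were checked with Snap25, a vesicle fusion protein of neurons (ENSMUSG00000027273, GRCm38 chr2:136713453-136782428), and Alb, serum albumin (ENSMUSG00000029368, chr5:90460897-90476602). Snap25 lay at 1396 to 1865 CPM (counts per 1000000, median 1622) in the brains. It was at 0 in 14 livers and at 0.0452 CPM in the liver of mouse 7. Alb lay at 51216 to 100132 CPM (median 88053) in the livers and at 0 to 0.0901 CPM in the brains. No library of 1 tissue came near the other. CPM here are scaled by the TMM-adjusted library size. Log2 fold changes are brain over liver with their standard error (SE), from edgeR's quasi-likelihood test with the mouse as a block, and p-values are adjusted by the Benjamini-Hochberg method over all genes tested.

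Nearly every gene differed between the tissues. Of 17890 genes tested, 16571 (92.6%) were called at an adjusted p under 0.05, with 9119 (51.0%) higher in the brain and 7452 (41.7%) higher in the liver. Since a difference of any size is the rule here, genes were also tested against a 4-fold difference. By that test 4897 genes (27.4%) were higher in the brain and 2672 (14.9%) in the liver, together 42.3% of those tested. The split depends on the scaling and on the filter. Of called genes 55.0% were higher in the brain here and 71.7% when libraries were scaled by their size alone. For the 4-fold genes the shares were 64.7% and 75.6%. With only genes of a mean of at least 1 CPM in both tissues, 50.9% of called and 52.0% of 4-fold genes were higher in the brain. The 15 brains and 15 livers did not overlap at 12664 genes (70.8%), of which 7132 (39.9%) were higher in the brain and 5532 (30.9%) in the liver. At the other end, 2173 genes (12.1%) had a 95% interval of the log2 fold change wholly within 0.5 of 0. Of all genes tested, 1319 (7.37%) were not called, but 364 of them had an interval that reached beyond those bounds. Of 7340 genes at least 4-fold apart that could be fitted in each of the 3 preparations alone, 7340 had the same direction in all 3 and 6651 passed the 4-fold test in each.

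More genes were high in the brain, and fewer but more abundant genes were high in the liver. The genes at least 4-fold higher in the brain supplied 41.4% to 44.5% of all counts in the brains, against 0.956% to 1.38% in the livers. The fewer genes at least 4-fold higher in the liver supplied 61.1% to 63.8% of all counts in the livers, against 2.84% to 4.05% in the brains. A floor of 3 counts per library was used for genes at or near 0. It stood for a higher CPM in the livers: 1 count was 0.0452 CPM in the liver of mouse 7 and 0.0188 CPM in the brain of mouse 8. In all 15 livers 1953 genes (10.9%) lay at or under it, 600 of them with a mean of at least 10 CPM in the brain. In all 15 brains the floor held 435 genes (2.43%), 242 of them with at least 10 CPM in the liver.

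**Figure D1:**
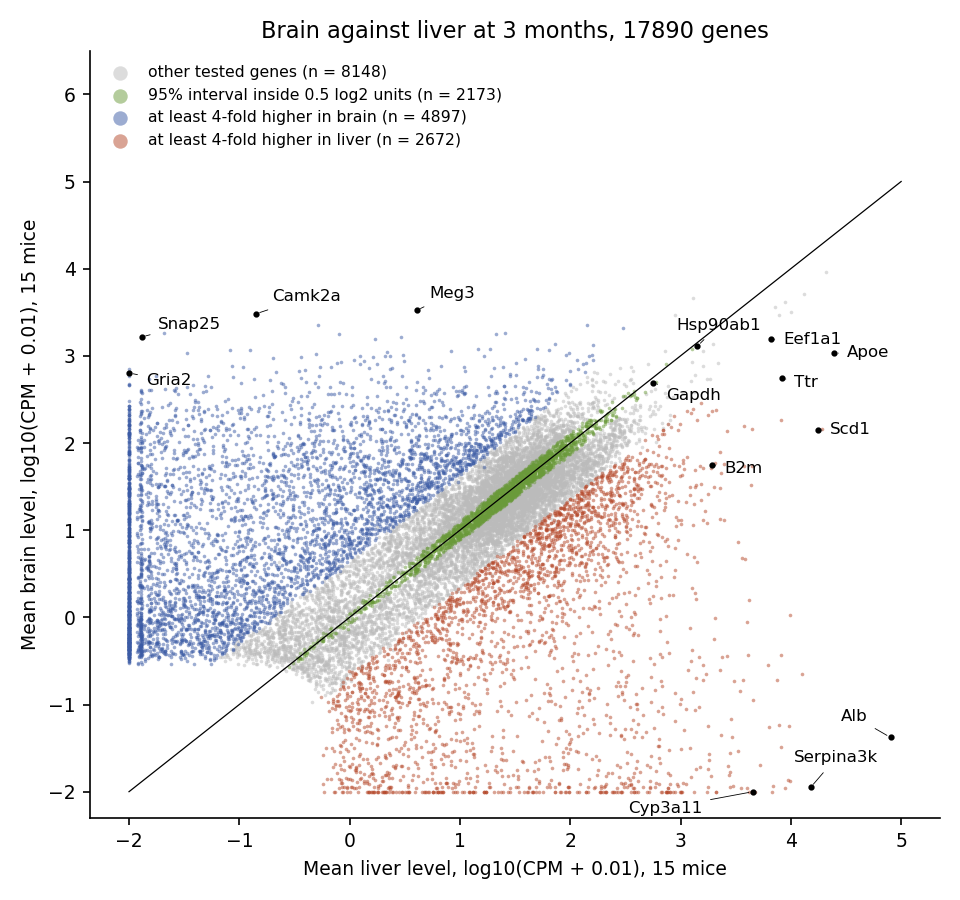
Mean brain level against mean liver level of the 17890 genes tested, each as log10 of CPM plus 0.01 over 15 mice, with the line of equality. Blue points are the 4897 genes at least 4-fold higher in the brain, red points the 2672 at least 4-fold higher in the liver and green points the 2173 genes with an interval within 0.5 log2 units, while the columns of points at the left and bottom edges are genes at or near 0 in 1 tissue.

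The brain genes of highest CPM include genes of transmission, calcium signalling and the cytoskeleton. Camk2a, the alpha subunit of the calcium-dependent kinase CaM kinase II that acts at synapses, lay at 2568 to 3778 CPM (median 3046) in the brains and at 0 to 0.279 CPM (median 0.0959) in the livers. Its log2 fold change was 14.45 ± 0.18 (adjusted p = 4.06e-23). Meg3, a maternally expressed long non-coding RNA, lay at 2284 to 4036 CPM (median 3428) in the brains and at 2.43 to 9.18 CPM (median 3.82) in the livers, a log2 fold change of 9.74 ± 0.19. No brain overlapped a liver at either gene. Ddn, which encodes the dendritic protein dendrin, lay at 1562 to 2548 CPM (median 1804) in the brains and at 0 to 0.0465 CPM in the livers, where every library was at the floor. It was at least 14665-fold higher in the brain. Others among the 10 were the glutamate transporter Slc1a2 (log2 fold change 4.02 ± 0.09), the small nucleolar RNA host gene Snhg11 (6.21 ± 0.11), Ncdn (6.49 ± 0.14), the prohormone-processing carboxypeptidase gene Cpe (11.16 ± 0.16) and the kinesin gene Kif5a (9.19 ± 0.11). Of these Slc1a2 was not a brain gene alone, at 106 to 203 CPM (median 135) in the livers.

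Ranked by fitted fold change, genes at the floor in every liver led the brain list. Against the floor, Snap25 was at least 13147-fold higher in the brain. Hpcal4, a neuronal calcium sensor, lay at 631 to 807 CPM (median 713) in the brains and at 0 in all 15 livers, a bound of at least 5669-fold. Gria2, the AMPA receptor subunit that sets the calcium permeability of the channel, lay at 535 to 769 CPM (median 616) and again at 0 in every liver, at least 5085-fold. The bounds for the vesicle-associated pseudokinase gene Camkv and the potassium-dependent sodium-calcium exchanger gene Slc24a2 were at least 4745-fold and 3840-fold. These are bounds set by the depth of the liver libraries, so the order of the bounds follows the brain level. Ddn and Slc17a7 were also at the floor in every liver, with bounds of at least 14665-fold and 8512-fold. Their fitted log2 fold changes, 17.01 and 15.24, were lower than those of the genes above. The ranking by fitted value thus also depends on liver counts under the floor.

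All tested members of the synapse lists were higher in the brain. Of 17 genes for synaptic vesicles and release, 17 were at least 4-fold higher there (27.4% of all genes), with a median log2 fold change of 9.16, against 0.245 over all 17890 genes. Syt1, the calcium sensor of vesicle fusion, lay at 994 to 1323 CPM (median 1206) in the brains and at 7.81 to 23.5 CPM (median 15.3) in the livers, a difference of 6.42 ± 0.14. Syp, a protein of the vesicle membrane, was at 841 to 1143 CPM (median 1025) against 0.769 to 1.82 CPM, a difference of 9.68 ± 0.11. Among 21 glutamate receptor subunits 20 were at least 4-fold higher, and 11 were at the floor in every liver. The one under 4-fold was Grm8, a presynaptic metabotropic receptor, at 0.77. Of 19 subunits of GABA and glycine receptors 17 passed the filter on low counts and 17 were at least 4-fold higher, 13 of the listed genes being at the floor in every liver. Genes at the floor in every liver passed the filter only through the brain, and those at the floor in every brain only through the liver. Their direction was therefore fixed in advance, here and in the other lists. Gabbr2, a subunit of the metabotropic GABA receptor, stood out in that list with 22.8 to 56.5 CPM (median 41.9) in the livers against 204 to 274 CPM (median 247) in the brains. Its fold change was the lowest of the list, 2.64 ± 0.11.

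The same held for excitability and for control of neuronal genes. All 23 voltage-gated sodium, potassium and calcium channel genes were at least 4-fold higher in the brain (27.4% of all genes), the lowest log2 fold change being 3.80. All 23 neural transcription factors and all 14 neuronal RNA-binding proteins were likewise at least 4-fold higher. Of these lists 9, 14 and 4 genes were at the floor in every liver, and with such genes at their bound the medians were 9.13, 7.25 and 8.12. Myt1l, a repressor of non-neuronal genes, lay at 146 to 192 CPM (median 164) in the brains and at 0 in all livers, at least 1315-fold higher. Tcf4 and Zbtb18, which are transcription factors of neurons but not of neurons only, were at 18.5 to 28.5 CPM and 29.7 to 53.0 CPM in the livers, so their differences were 4.15 ± 0.07 and 3.45 ± 0.07. The splicing factor Rbfox2 behaved like these, with 37.7 to 57.6 CPM in the livers and the lowest fold change of its list, 2.42 ± 0.06.

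Genes that make, move and break down transmitters were found on both sides. Of 28 listed, 22 passed the filter on low counts, 15 of them higher in the brain and 7 higher in the liver (51.0% and 41.7% of all genes), and 17 and 5 when libraries were scaled by size alone. On the brain side, Gad1, which makes GABA, lay at 188 to 291 CPM (median 241) against 0 to 0.0930 CPM, at least 1923-fold higher. Slc17a7, which loads glutamate into vesicles, lay at 878 to 1309 CPM (median 1073) against at most 0.0881 CPM, at least 8512-fold higher. On the liver side, Abat, which breaks down GABA, was at 177 to 218 CPM (median 207) against 410 to 658 CPM (median 546), a log2 fold change of -1.37 ± 0.05. Among the other liver members, named after their values were seen, were Maob, an amine oxidase, at -3.69 ± 0.08, and Ddc, which makes dopamine and serotonin from their precursors, at -4.94 ± 0.09. In the brains Th, the first enzyme of dopamine synthesis, reached only 0.384 to 1.92 CPM.

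Glial genes were higher in the brain with 1 exception among astrocyte markers and 1 among microglia markers. Of 8 astrocyte markers 7 were higher in the brain (51.0% of all genes). Slc1a3, a glutamate transporter of astrocytes, lay at 440 to 529 CPM (median 504) against 0.240 to 3.72 CPM (median 0.652). Aldh1l1, a folate enzyme widely used to mark astrocytes, went the other way, at 28.7 to 38.0 CPM (median 31.2) in the brains and 880 to 1825 CPM (median 1442) in the livers. Its log2 fold change was -5.40 ± 0.10, lower in the brain in 15 of 15 mice. Slc4a4, a bicarbonate cotransporter, was close in the 2 tissues, at 133 to 161 CPM against 63.2 to 144 CPM, and the groups overlapped (0.45 ± 0.08). All 9 genes of oligodendrocytes and myelin were at least 4-fold higher in the brain. Mbp, the myelin basic protein, lay at 791 to 3670 CPM (median 1429) in the brains and at 0.909 to 4.00 CPM in the livers. The brain of mouse 9 gave the highest value of Mbp (3670) and the brain of mouse 7 the lowest (791). All 5 genes of oligodendrocyte precursors were higher in the brain, and 7 of 8 microglia genes were. The chemokine receptor Cx3cr1, for one, lay at 37.9 to 46.4 CPM in the brains and at 0.543 to 5.03 CPM in the livers. The exception was Sall1, a transcription factor of microglia in the brain, at 16.9 to 26.1 CPM in the brains and 25.5 to 44.8 CPM in the livers (-0.74 ± 0.08, adjusted p = 4.06e-08), and the sign turned without passing the test when libraries were scaled by size alone (0.11).

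Markers of cells at the edge of the brain varied most between brains. Of 7 tested choroid plexus genes 5 were higher in the brain, while Ttr, the thyroxine carrier transthyretin, and the water channel gene Aqp1 were higher in the liver. Ttr lay at 4351, 1898 and 934 CPM in the brains of mice 5, 15 and 4 and at 14.3 to 241 CPM in the other 12, against 4990 to 13231 CPM (median 8256) in the livers. The order of these 3 brains was the same for Kl, the ageing-related coreceptor klotho, at 202, 80.1 and 54.3 CPM with the other 12 at 16.4 to 31.3. Enpp2, which makes lysophosphatidic acid, had 1865, 742 and 383 CPM in them and 54.0 to 247 CPM in the others. For the hormones of the pituitary, Gh (growth hormone) was at 364 CPM in the brain of mouse 5 and 123 CPM in that of mouse 1, with the others at 0.982 CPM or below, and Prl (prolactin) was at 58.0 and 19.2 CPM in the same brains. Gh and Prl were chosen after their values were seen. Without mice 4, 5 and 15 the counts were 16277 genes called and 7460 at least 4-fold apart. Of the cerebellum, 5 of 6 tested markers of cerebellar granule cells were at least 4-fold higher in the brain, with a sum over the 7 listed of 137 to 179 CPM. Most of that sum was Etv1, a transcription factor not limited to the cerebellum, at 74.6 to 137 CPM against 0.770 to 2.14 CPM. Gabra6, a receptor subunit of granule cells that did not pass the filter, lay at 0 to 1.00 CPM (median 0.0798), and Cbln3, a cerebellin, was lower in the brain at 0.264 to 2.39 CPM against 0.930 to 2.57 CPM (-1.58 ± 0.27).

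The liver genes of highest CPM mostly encode secreted proteins, with Scd1 an enzyme of fat among them. Besides Alb (log2 fold change -21.16 ± 0.29, with 13 of 15 brains at the floor), Serpina3k, a serine protease inhibitor, lay at 11498 to 18896 CPM (median 15329) in the livers and at no more than 0.0180 CPM in the brains. It was at least 276673-fold higher in the liver, the largest bound of all genes named by the rule. Ahsg, which encodes fetuin-A, lay at 7069 to 13620 CPM (median 9363), at least 180309-fold higher. Large bounds were also found for Mup3, a major urinary protein (174269), Serpina1e, an alpha-1-antitrypsin (162513), Pzp, a broad inhibitor of proteases (125418), and Gc, the carrier of vitamin D (124854). Counts of Mup3, Serpina1e and Serpina3k are uncertain, because each has near-identical relatives and the treatment of shared reads is not given. Other leading liver genes were expressed in the brain as well. Apoe, the apolipoprotein that carries lipid in both tissues, lay at 15793 to 30294 CPM (median 25136) in the livers and at 928 to 1360 CPM (median 1071) in the brains, a fold change of -4.51 ± 0.10. Trf, transferrin, lay at 14917 to 23685 CPM (median 19128) against 72.3 to 309 CPM (median 131), a change of -7.13 ± 0.16. Scd1, the desaturase that makes oleic acid, was at 2723 to 6098 CPM in the 4 livers that stood apart and at 9926 to 36191 CPM in the other 11, while the brains held 93.8 to 192 CPM (-6.66 ± 0.43).

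Genes of hepatocyte identity were higher in the liver in every list below. Of 13 hepatocyte markers 13 were at least 4-fold higher in the liver (14.9% of all genes), with a median log2 fold change of -15.29 when the 5 at the floor in every brain are set at their bound, and so were 19 of 20 hepatocyte transcription factors, with the last also called in that direction. Hnf4a, a nuclear receptor that directs hepatocyte genes, lay at 674 to 1215 CPM (median 886) in the livers and at no more than 0.0171 CPM in the brains, at least 16935-fold higher. Cebpa, a factor of hepatocyte and fat cell genes, was present in the brain too, at 8.96 to 16.0 CPM against 318 to 676 CPM (-5.48 ± 0.08). In the urea cycle all 7 genes were at least 4-fold higher in the liver. Cps1, which starts the cycle, lay at 3227 to 5035 CPM (median 4128) against 0.0798 to 0.565 CPM, a difference of -13.48 ± 0.20. All 8 genes of glucose synthesis and release were at least 4-fold higher in the liver. Pck1, the enzyme that commits carbon to glucose, ran from 148 to 3655 CPM (median 1306) between livers, a wide spread beside its bound of at least 27762-fold.

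Ketone bodies are made mainly in the liver and used by other tissues, the brain among them. Of 8 genes of ketone synthesis and use, 6 were higher in the liver and 1 in the brain (41.7% and 51.0% of all genes). Oxct1, which starts the use of ketone bodies, lay at 182 to 224 CPM (median 203) in the brains and at 5.18 to 19.1 CPM in the livers (4.85 ± 0.10). No brain overlapped a liver at this gene. The eighth gene, the transporter gene Slc16a6, was not called, with an interval of -0.94 to 0.13.

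Lists of proteins secreted by the liver held members that were higher in the brain. Among 20 coagulation genes 18 were at least 4-fold higher in the liver (14.9% of all genes), with Fga, the alpha chain of fibrinogen, at 7348 to 19621 CPM (median 8884) against at most 0.0972 CPM. The 2 others were higher in the brain: F3, tissue factor, which starts clotting, at 23.6 to 34.3 CPM against 2.60 to 6.63 CPM, 6.97-fold higher in the fit, and Vwf, von Willebrand factor of endothelium, at 8.82 to 25.9 CPM against 5.76 to 10.2 CPM (0.75 ± 0.13). Of 20 tested complement genes 18 were higher in the liver (41.7% of all genes), led by C3 at 7616 to 20090 CPM (median 8685) against 0.244 to 2.32 CPM. The 2 against were C1ql2 and C1ql3, secreted C1q-like proteins of synapses and not part of the complement cascade, the former at the floor in every liver and at least 303-fold higher, the latter at 9.58 ± 0.10. Of 16 tested apolipoproteins 14 were higher in the liver, 1 was not called (Apoo, at an interval of -0.24 to 0.06) and 1 was higher in the brain. That one was Apod, a lipid carrier of glia, at 43.2 to 133 CPM (median 86.7) against at most 0.144 CPM, at least 669-fold higher. Of 23 plasma carriers and secreted proteins 6 were higher in the brain, Sparcl1 (1000 to 1317 CPM against 5.05 to 10.4) and the cystatin gene Cst3 (493 to 765 CPM against 118 to 165) being those of highest CPM.

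Bile acid and drug metabolism showed the same pattern, with the exceptions again in the brain. Of 14 genes for bile acids 13 were at least 4-fold higher in the liver (14.9% of all genes). Cyp7a1, the rate-limiting enzyme of the classic pathway, was at 28.7 to 254 CPM (median 99.6) in the livers and at 0 in every brain. Cyp46a1, which removes cholesterol from the brain by hydroxylating it, lay at 87.5 to 114 CPM (median 99.1) in the brains and at 0.712 to 2.67 CPM in the livers (5.69 ± 0.12). Of 26 genes of cytochrome P450 families, 23 were at least 4-fold higher in the liver and 3 were higher in the brain. Cyp3a11 and Cyp2c29, enzymes of drug metabolism, were at 1827 to 6942 CPM and 1291 to 4172 CPM in the livers and at 0 in all 15 brains, at least 83162-fold and 38476-fold. On the brain side, Cyp4x1 was at 9.97 to 13.9 CPM with no count in any liver, at least 99.3-fold, and Cyp2j9 overlapped between tissues at 16.6 to 30.6 CPM against 9.66 to 21.6 CPM (0.43 ± 0.09). Counts of the Cyp2c and Cyp3a genes may be split among near-identical relatives.

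The other cells of the liver were also visible. All 8 Kupffer cell genes and all 8 genes of sinusoidal endothelium were at least 4-fold higher in the liver (14.9% of all genes). Of 7 stellate cell genes 7 were higher in the liver (41.7% of all genes), 5 of them by 4-fold, but under library size alone 5 were higher there, 1 was higher in the brain and 1 was not called. Of 7 genes of bile duct cells (cholangiocytes) 5 were at least 4-fold higher in the liver (14.9% of all genes). The 2 others, Sox9 and Cftr, were higher in the brain, 1 of them at least 4-fold (27.4% of all genes). Clec4f, a lectin of Kupffer cells, lay at 132 to 364 CPM (median 156) against at most 0.0222 CPM. Stellate genes were less exclusive: Reln, which guides neurons and is made by stellate cells too, lay at 28.2 to 80.5 CPM in the brains and 55.1 to 99.4 CPM in the livers, with overlap, and its direction turned with scaling by library size alone (-0.58 ± 0.10, against 0.27). In a bulk library, red cells and other tissue can add RNA. The beta-globin gene Hbb-bs lay at 12.6 to 93.7 CPM in the brains and 59.1 to 133 CPM in the livers (-1.56 ± 0.17), and Alas2, the heme enzyme of red cell precursors, at 0.726 to 5.19 CPM against 62.8 to 176 CPM (-6.13 ± 0.22). Summed B and T cell markers reached 0.288 to 1.20 CPM in the brains and 5.76 to 33.6 CPM in the livers. Of 7 pancreas acinar genes 6 were at the floor in every liver, and the elastase gene Cela1 lay at 21.1 to 48.5 CPM in the livers. Their part in other differences was not tested.

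Related genes that share a reaction or role were compared in pairs. In 34 pairs, written with the first gene as the form known from brain and the second as the form known from liver or from most tissues, 33 first forms were higher in the brain and 26 second forms were higher in the liver, against 51.0% and 41.7% of all genes. Both were called, in opposite directions, in 25 pairs, and both were at least 4-fold apart in 16. Under library size alone these counts were 20 and 15. The ratio of the first form to the second was higher in the brain than in the liver of the same mouse in 15 of 15 mice for each of the 34 pairs. Per length (TPM, transcripts per 1000000), the first form exceeded the second in the brain and the second exceeded the first in the liver in 33 pairs. The exception was the phosphofructokinase pair, where Pfkl exceeded Pfkp in both tissues, with Pfkp to Pfkl ratios of 0.489 in the brain against 0.0480 in the liver.

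Glycolysis and sugar handling were covered by 9 of the pairs. For pyruvate kinase, the TPM ratio of Pkm to Pklr was 6333 in the brain, where Pklr was at the floor in 7 of 15 libraries, against 0.0616 in the liver. For the glucose transporters, Slc2a3 (GLUT3) lay at 88.2 to 125 CPM in the brains against 0.454 to 2.41 CPM, and Slc2a2 (GLUT2) at 174 to 499 CPM in the livers against at most 0.120 CPM. For Pygb to Pygl, the glycogen phosphorylases, the TPM ratio was 100 and 0.0210. In each of these families 1 form was high in each tissue. Enolase differed from them: Eno1 was at -0.25 ± 0.06 (0.60 under library size alone), and Eno2, the neuronal form, was added to it in the brain at 578 to 745 CPM (median 663) against 0.0321 to 0.633 CPM.

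Amino acids, fats and thyroid hormone followed. Mat1a, the liver's methionine adenosyltransferase, lay at 2153 to 5292 CPM (median 3235) against 0.0331 to 0.394 CPM, while Mat2a was higher in the brain by 0.57 ± 0.04, at 138 to 167 CPM against 91.5 to 120 CPM. Fabp1, the liver fatty acid-binding protein, lay at 1839 to 5733 CPM (median 4242) and Fabp7, that of brain, at 18.7 to 31.6 CPM in the brains, where Fabp1 was at the floor in every library. Dio2, which makes the active hormone inside the brain, lay at 32.7 to 46.7 CPM against at most 0.0452 CPM, at least 312-fold higher, and Dio1 at 51.6 to 191 CPM in the livers against at most 0.0439 CPM (-12.36 ± 0.14). In the wider list of 14 genes for thyroid hormone, 6 were higher in the brain and 7 in the liver (51.0% and 41.7% of all genes) and 1, Klf9, was not called, while under library size alone 8 were higher in the brain and 6 in the liver. Of the hormone's receptors, Thra was at 4.96 ± 0.07 and Thrb at -0.69 ± 0.06, the latter at 0.16 under library size alone. The only first form that was lower in the brain was Hmgcs1, the cytosolic HMG-CoA synthase of cholesterol synthesis, at -1.87 ± 0.27. In the 4 livers that stood apart it was at 141 to 296 CPM, within reach of the brains (136 to 213 CPM), and in the other 11 at 701 to 1557 CPM.

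Secretion, the cytoskeleton and RNA-binding proteins were covered by other pairs. For Snap25 to Snap23, SNARE proteins, the TPM ratio was 72.6 in the brain, and Snap25 was at the floor in every liver. Snap23 itself was only -1.71 ± 0.05. Second forms that were higher in the brain too were Pfkl, Napa, Kif5b, Map4, Elavl1, Camk2g and Tubb5, from 0.21 ± 0.04 for the RNA-binding protein gene Elavl1 to 3.07 ± 0.09 for the kinase gene Camk2g. Splicing regulators exchanged: Ptbp2, the neuronal form, was higher in the brain at 2.55 ± 0.09 and Ptbp1 lower at -2.36 ± 0.10.

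**Figure D2:**
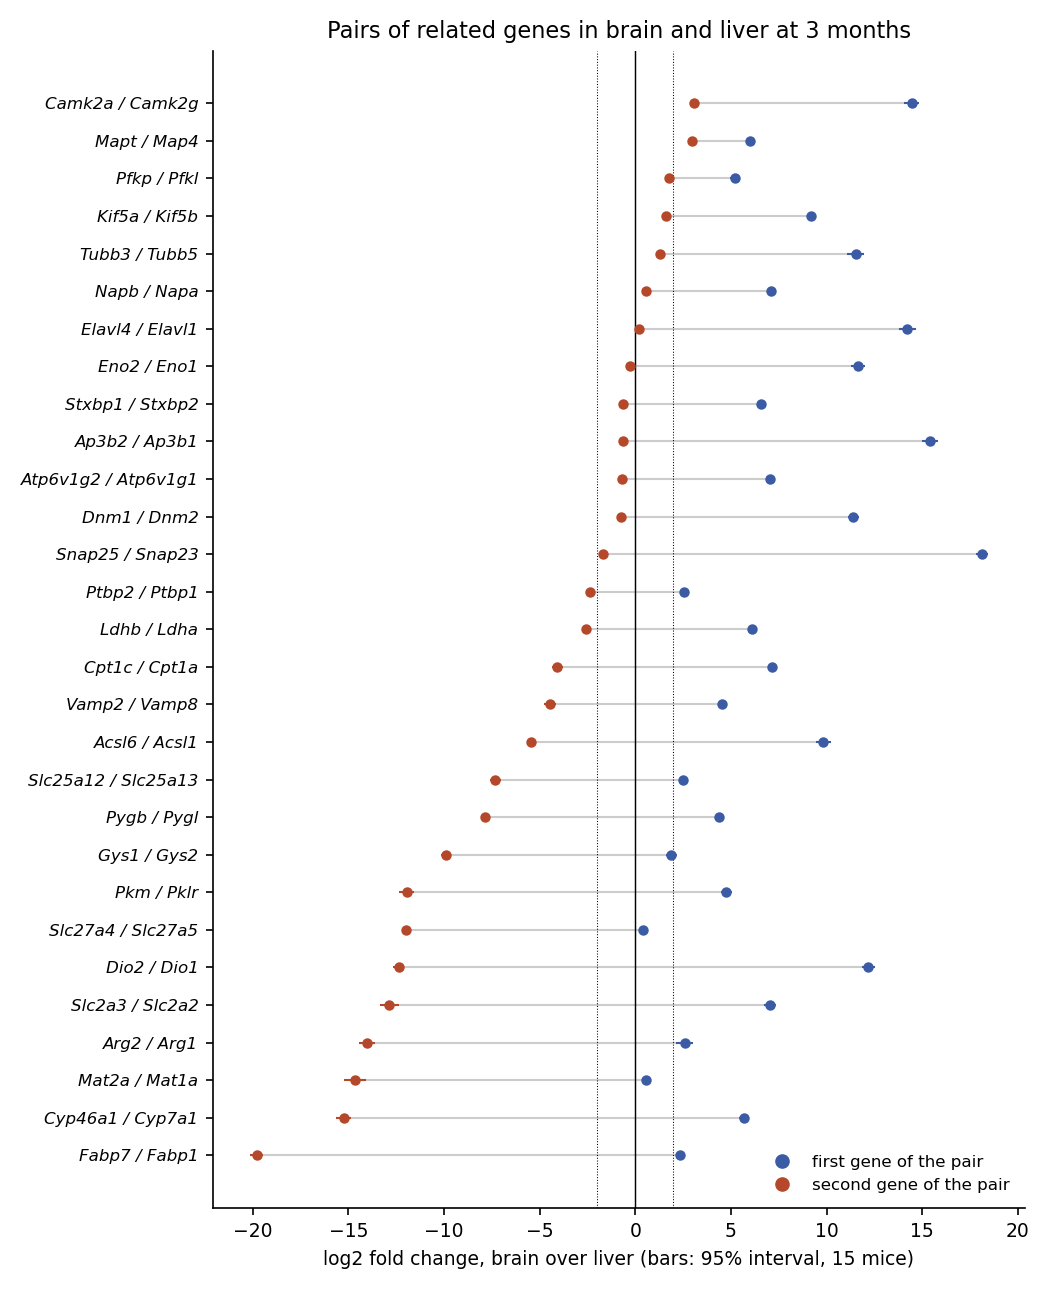
Log2 fold change of brain over liver for both genes of 29 of the 34 pairs, 5 being not shown (among them that of Hmgcs1), with 95% intervals over 15 mice, the first gene in blue and the second in red. Dotted lines mark 4-fold, and in 13 of the pairs drawn both genes passed the 4-fold test in opposite directions.

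Imprinted genes are expressed from the allele of 1 parent. Of 25 tested, 24 were higher in the brain (51.0% of all genes), 17 of them by at least 4-fold (27.4% of all genes), with a median log2 fold change of 3.83 when the 4 at the floor in every liver are set at their bound. Rian, a non-coding RNA of the same cluster as Meg3, lay at 411 to 615 CPM (median 514) against 1.12 to 5.26 CPM, and Peg3, a paternally expressed zinc finger gene, at 226 to 368 CPM (median 273) against 7.64 to 55.2 CPM. Gnas, the stimulatory G protein subunit, differed least among those of high CPM (0.70 ± 0.06). Igf2r, the receptor that clears Igf2, was lower in the brain, at 27.3 to 39.6 CPM against 43.2 to 74.4 CPM (-0.81 ± 0.07), a call lost under library size alone (0.04).

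REST is a repressor that keeps neuronal genes off outside neurons, through corepressors of its own. Rest lay at 4.97 to 8.30 CPM (median 6.26) in the brains and at 21.9 to 38.2 CPM (median 30.2) in the livers, a fold change of -2.23 ± 0.06. Among 12 genes for REST and its corepressors 8 were higher in the brain and 4 in the liver (51.0% and 41.7% of all genes), and 11 and 1 when libraries were scaled by size alone, with Rest the one. The corepressor gene Rcor2 was at 5.64 ± 0.15.

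The sequence before the start of these genes was read from RefSeq promoters (GRCm38.p6) over the 250 bases upstream of the start, for genes matched by symbol: 3258 of the 4897 brain genes, 1938 of the 2672 liver genes, 1723 of the 2173 alike genes and 12814 of all 17890 tested. Motifs were searched on both strands unless stated, and a match is only a run of letters. GTTAATNAT, the core of the site of hepatocyte factor HNF1, stood in 2.22% of liver promoters, 0.338% of brain promoters and 0.29% of alike promoters. It stood in 0.562% of promoters of all tested genes and 0.781% of all 27025 promoters. Alb and Fga are shown because they lead the liver list and hold that motif close to the start, in capitals on the transcribed strand: in Alb at chr5:90460818-90460866 on the plus strand and in Fga, as its reverse complement, at chr3:83026087-83026135 on the plus strand.
Alb: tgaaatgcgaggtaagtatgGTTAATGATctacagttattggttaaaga
Fga: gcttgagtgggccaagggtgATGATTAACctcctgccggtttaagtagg

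CAAAGTCCA, a form of the HNF4 site, stood in 1.19% of liver promoters, 0.276% of brain promoters, 0.421% of all tested promoters and 0.381% of all. The example is Cyp3a11, at chr5:145879935-145879983 on the minus strand, whose RNA was at 0 in every brain. TTCAGCACC, the left part of the element bound by REST, stood in 17 of 3258 brain promoters (0.522%) and 1 of 1938 liver promoters (0.0516%). Its share was 0.281% of all tested promoters and 0.285% of all. Syn1, which encodes the vesicle protein synapsin I, is shown for it, at chrX:20921122-20921168 on the minus strand. GGACAGC, the right part of the same element, stood in 7.06% of brain, 6.19% of liver, 6.32% of all tested promoters and 5.29% of all. The shares of the longer motifs are small in every set, and no match says only that the letters are not in this window.
Cyp3a11: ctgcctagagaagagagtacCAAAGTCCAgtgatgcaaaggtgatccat
Syn1: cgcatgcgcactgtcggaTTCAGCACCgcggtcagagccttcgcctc

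CpG content differed between the sets as well. The ratio of observed to expected CG pairs was above 0.6 in 77.4% of alike promoters, 49.3% of brain promoters and 35.1% of liver promoters, against 60.6% of promoters of all tested genes and 34.5% of all promoters. Median ratios were 0.789, 0.594 and 0.426 in the 3 sets. The last 100 bases before the start of 3 genes are given as examples only, with CG pairs in capitals. Gc, high in the liver and at 0 in all brains, has 0 of them (chr5:89457899-89457998, minus strand). Gria2, at 0 in all livers, has 13 (chr3:80802836-80802935, minus strand). Ddx5, an RNA helicase at like levels in both tissues, has 9 (chr11:106789186-106789285, minus strand). Over 250 bases the ratios of Gc, Gria2 and Ddx5 were 0, 0.728 and 0.868. TATAAA on the transcribed strand between 40 and 20 bases before the start stood in 3.51% of liver promoters, 1.69% of brain promoters and 0.522% of alike promoters, against 1.48% of promoters of tested genes and 2.22% of all promoters.
Gc: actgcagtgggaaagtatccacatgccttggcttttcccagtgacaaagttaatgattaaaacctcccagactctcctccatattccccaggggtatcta
Gria2: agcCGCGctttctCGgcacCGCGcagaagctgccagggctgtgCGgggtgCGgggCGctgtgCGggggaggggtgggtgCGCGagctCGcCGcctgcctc
Ddx5: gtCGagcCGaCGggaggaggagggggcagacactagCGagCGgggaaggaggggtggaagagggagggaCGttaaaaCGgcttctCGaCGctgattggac

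The 2173 genes with an interval within 0.5 log2 units are alike only under the scaling used: none of them stayed within it when libraries were scaled by size alone, which moved the median of all genes by 0.85. The most abundant of them, of which Hsp90ab1, Glul, Eno1, Gapdh and Gabarapl1 turned to higher in the brain under library size alone, were Hsp90ab1, a chaperone (-0.12 ± 0.07, at 1126 to 1417 CPM against 1152 to 2026), Glul, which makes glutamine in astrocytes and in hepatocytes around the central vein (-0.11 ± 0.08, at 1029 to 1508 CPM against 1017 to 1519), Ddx5 (0.15 ± 0.05), Eno1, the reference gene Gapdh described next and Gabarapl1, an autophagy gene (-0.26 ± 0.08). Ddx5 lay at 756 to 893 CPM in the brains and 656 to 844 CPM in the livers, so the groups overlapped although the gene was called (adjusted p = 0.00681). In all, 1218 genes were both called and within the interval.

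Of 20 genes in common use as references, 12 were higher in the liver, 4 higher in the brain and 4 not called (92.6% of all genes were called), while under library size alone the counts were 9, 11 and 0. Within 0.5 log2 units were 5 of the 20, beside 12.1% of all genes: Gapdh (-0.20 ± 0.06, but 0.65 under library size alone), Hprt (0.00 ± 0.05), Tbp (0.34 ± 0.06), Polr2a (0.10 ± 0.06) and Rpl13a (0.09 ± 0.08). The genes farthest out were B2m, the light chain of class I molecules, at 42.6 to 71.2 CPM against 1555 to 2723 CPM (-5.09 ± 0.10), and Tuba1a, an alpha tubulin, at 257 to 355 CPM against 3.05 to 9.13 CPM (5.77 ± 0.09). Eef1a1, the elongation factor of translation, was lower in the brain, at 1421 to 1798 CPM against 4910 to 7888 CPM (-2.07 ± 0.07). Actb, beta actin, was not called (-0.32 ± 0.20, adjusted p = 0.139, and called at 0.54 under library size alone), and the livers were uneven. Brains lay at 728 to 947 CPM and 10 livers at 679 to 845 CPM, but the 4 livers that stood apart were at 2017 to 2964 CPM and the liver of mouse 12 at 1210 CPM. Processed copies of Gapdh, Actb, Eef1a1, Rpl13a, Rps18 and Ppia in the genome make their counts uncertain.

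**Figure D3:**
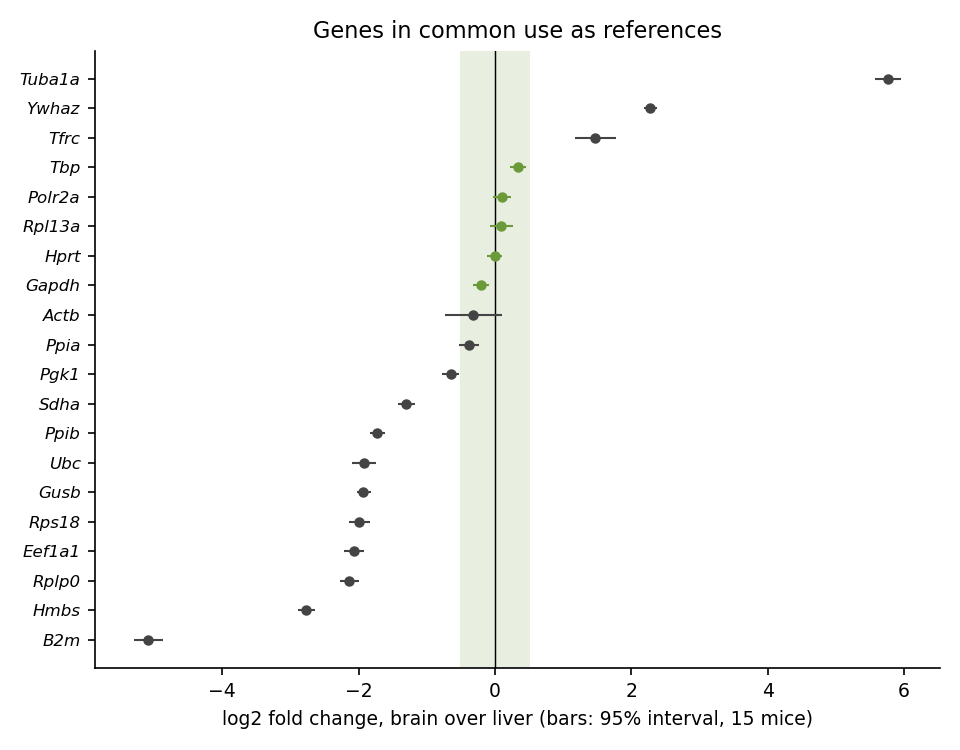
Log2 fold change of brain over liver for 20 genes in common use as references, with 95% intervals over 15 mice. The shaded band marks 0.5 log2 units either side of 0, and the 5 genes wholly inside it are green, while B2m at -5.09 and Tuba1a at 5.77 lie farthest out.

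Proteasome subunits and mitochondrially encoded proteins were higher in the liver, nearly all by less than 4-fold. Of 31 proteasome subunits 30 were higher in the liver (41.7% of all genes) and none by 4-fold (14.9% of all genes), with a median of -1.21 and a range of -1.93 to -0.08. Psmd2 lay at 133 to 158 CPM in the brains and 259 to 305 CPM in the livers (-0.95 ± 0.04), without overlap. Under library size alone 23 were higher in the liver, 4 higher in the brain and 4 not called, with a median of -0.36, and the scaling itself moved the median of all genes by 0.85. For the 13 mitochondrially encoded proteins, all higher in the liver with a median of -1.32 (-2.25 to -0.71, 1 at least 4-fold), the counts were 10, 0 and 3 under library size alone. The share of mitochondrial counts in a library was 4.28% to 5.96% in the brain and 4.61% to 5.80% in the liver, before any scaling. Class I antigen presentation showed a larger difference. All 10 genes of the immunoproteasome and class I presentation were higher in the liver, 9 by at least 4-fold, with a median of -4.19 and of -3.34 under library size alone. The heavy chain genes H2-K1 and H2-D1, near-identical and so uncertain in their split, were at -6.11 ± 0.14 and -4.50 ± 0.13.

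The livers of different mice differed from each other more than the brains did. Over 6815 genes with at least 10 CPM in both tissues, the SD of log2 CPM between mice was higher among the livers for 6226 (91.4%), with a median SD of 0.196 against 0.105. The common biological coefficient of variation in a fit of each tissue alone was 0.240 in the liver and 0.134 in the brain. Depth was lower in the liver (median 31.4 against 39.6 M counts), and its part in this was not tested. The livers that stood apart on the first principal component were included, and their part was not tested either.

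Among tested genes whose mean in the tissue reached 10 CPM, which leaves out Gh and Prl, those of largest biological coefficient of variation between brains were choroid plexus genes and a pseudogene, and those that varied most between livers were mostly acute-phase genes, beside Mt2 and Serpinf1. In the brains they were Ttr and Enpp2, described above, with Clic6 (97.0, 36.0 and 22.9 CPM in mice 5, 15 and 4), the prolactin receptor gene Prlr (65.2, 22.0 and 18.8 CPM) and the sulfatase gene Sulf1 (58.5, 17.2 and 17.2 CPM), and Mid1-ps1. In the livers Saa1, serum amyloid A, was at 3229 CPM in mouse 15 and 2101 CPM in mouse 12, with the other 13 at 34.1 to 106 CPM. Lcn2, the iron-binding lipocalin, was at 275 CPM in mouse 12 and 192 CPM in mouse 15, with the others at 2.83 to 7.35 CPM. Orm2, an acid glycoprotein, was at 412 and 357 CPM in the same mice, with the others at 7.72 to 38.5 CPM. The brains of mice 12 and 15 showed no such level of Saa1, which lay at 0.0199 to 0.205 CPM in all 15. The metallothionein gene Mt2 was at 183 CPM in the liver of mouse 15 and at 0.925 to 22.4 CPM in the other livers. Serpinf1, the secreted factor PEDF, fell in 2 sets that were not those of the 4 livers: 336 to 1035 CPM in mice 5 and 10 to 16, and 17.0 to 28.9 CPM in mice 1, 2, 3, 4, 7, 8 and 9. Without mice 10, 13, 15 and 16, 16320 genes were called and 7463 were at least 4-fold apart.

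**Figure D4:**
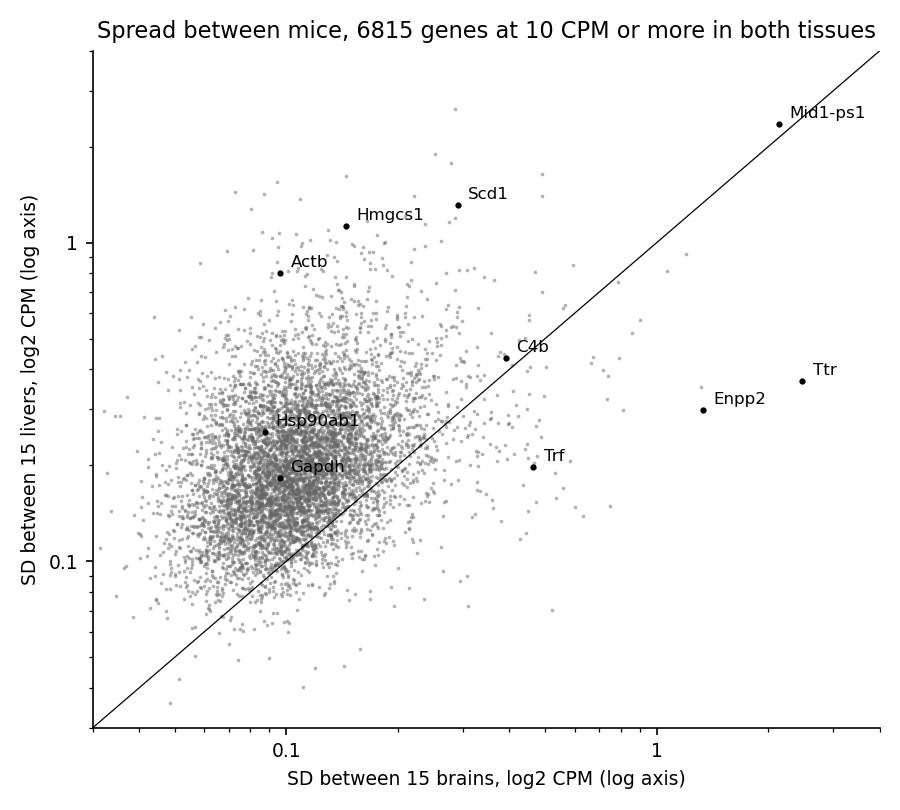
Standard deviation (SD) of log2 CPM between 15 livers against that between 15 brains for 6815 genes with at least 10 CPM in both tissues, on log axes, with the line of equality. Points above the line, 6226 of them, varied more between livers, as Scd1, Hmgcs1 and Actb did, and Ttr, Enpp2 and Trf varied more between brains.

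Whether a mouse that was high for a gene in its brain was also high in its liver was asked for 13 genes of the clock, glucocorticoid response and red cells. None of the 13 correlations over 15 mice passed an adjusted p under 0.05 in the permutation test. The largest were Cdkn1a, a cell cycle inhibitor (Pearson r = 0.60, permutation p = 0.0245, adjusted 0.173; rho = 0.37; r = 0.51 without the 2 mice farthest from the median), and Sgk1, a kinase induced by glucocorticoids (r = 0.57, permutation p = 0.0265, adjusted 0.173; rho = 0.56; r = 0.39 without 2). For Dbp and Nr1d1, clock outputs, r was 0.17 and -0.05, although Nr1d1 ran from 6.14 to 330 CPM between livers and from 55.6 to 78.8 CPM between brains.

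The same question over all genes, added after the data were seen, gave a short list. Among 11186 genes with a mean of at least 1 count per 1000000 in both tissues before TMM scaling, a difference between mice that their brain and liver shared was called at 10 genes (0.0894%) by edgeR's quasi-likelihood test with Benjamini-Hochberg adjustment. The first was Mid1-ps1, a pseudogene of the ubiquitin ligase gene Mid1 on the Y chromosome (chrY:90753057-90763485, adjusted p = 3.31e-09). It was at 0.419 and 0.308 CPM in the brain and liver of mouse 5, at 0.357 and 0.178 CPM in mouse 11 and at 0.529 and 0.627 CPM in mouse 15. Mouse 12 (1.84 and 2.73 CPM) and mouse 14 (3.93 and 5.01 CPM) were between these and the other 10, at 10.4 to 20.5 CPM in brains and 13.2 to 25.7 CPM in livers. Mid1 itself on the X chromosome (adjusted p = 6.93e-07) and the Y-linked Gm21742 (1.49e-05) and Gm47283 (0.0123) are near-identical to parts of it or to each other, so reads may be split among them and the 4 are not independent. Gm47283 lost its call when mouse 2, 11 or 14 was left out (adjusted p = 0.0533, 0.0965 and 0.0626). At the remaining ages, 17 of 67 mice were more than 4-fold under the median of those ages for Mid1-ps1 in both tissues and 4 in only 1 (against the 3-month median, mice 5, 11, 12 and 15 were so in both).

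Capn11, a calpain, and Snx19, a sorting nexin, also fell into sets of mice. Capn11 (chr17:45630204-45659325, adjusted p = 6.40e-06) was at 2.13 to 5.89 CPM in the brains and 3.69 to 7.60 CPM in the livers of mice 3, 9, 10, 11 and 12, and at 0.198 to 0.362 and 0.136 to 0.880 CPM in the other 10. At the other ages 19 of 67 mice were more than 4-fold above the median in both tissues and 3 in only 1. Snx19 (chr9:30427108-30466733, adjusted p = 0.000210) was at 8.21 to 9.09 CPM in the brains and 10.3 to 12.3 CPM in the livers of mice 10, 13 and 16, at 37.0 and 26.3 CPM in mouse 14, and at 58.9 to 70.0 and 42.4 to 67.2 CPM in the other 11. Mice 10, 13 and 16 are 3 of the 4 whose livers stood apart, while their brains lay at -14.4 to -2.6 on the first component of the brains, beside -12.9 to 28.2 in the others. Over the 67 mice of other ages, brains lay at 42.8 to 81.4 CPM and livers at 27.5 to 51.4 CPM for Snx19, and both lowest values belonged to mouse 12 of 9 months, close to mouse 14 of 3 months. Brain and liver levels of Snx19 were not correlated beyond the threshold over those 67 mice (r = 0.27, permutation p = 0.0583, adjusted 0.0583; rho = 0.00; r = -0.03 without the 2 farthest mice). The 3 mice came from preparations 2 and 3.

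Lrg1 and Gbp4 rested on a single mouse each. Lrg1, an acute-phase glycoprotein, was highest in both tissues of mouse 15 (4.80 CPM in the brain against 2503 CPM in the liver), followed by mouse 12 (1.33 and 982 CPM), with the others at 0.339 to 0.991 and 310 to 595 CPM. Its adjusted p rose from 0.000456 to 0.555 without mouse 15. Gbp4, an interferon-induced GTPase, reached 7.91 CPM in brain and 58.6 CPM in liver of mouse 12, while no other mouse exceeded 3.57 and 15.4 CPM, and its adjusted p rose from 0.00549 to 0.993 without that mouse. P4ha1, a collagen prolyl hydroxylase (adjusted p = 0.0328), and Pdia4, a chaperone of the endoplasmic reticulum (adjusted p = 0.0377), showed graded values, and each lost its call in 11 of the 15 fits that left out 1 mouse (for both, adjusted p = 0.148 without mouse 9): P4ha1 ran from 29.6 to 55.6 CPM in the brains and 13.1 to 29.3 CPM in the livers. Over the 67 mice of other ages, the Pearson correlation of brain and liver was 0.67 for Lrg1, 0.84 for Gbp4, 0.44 for P4ha1 and 0.37 for Pdia4, with adjusted permutation p-values of 1.67e-05, 1.67e-05, 0.00126 and 0.00851 over 10 genes, where 1e-05 is the smallest p the permutations can give. Spearman's rho was 0.58, 0.65, 0.59 and 0.54, and r without the 2 farthest mice was 0.53, 0.79, 0.58 and 0.42.

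**Figure D5:**
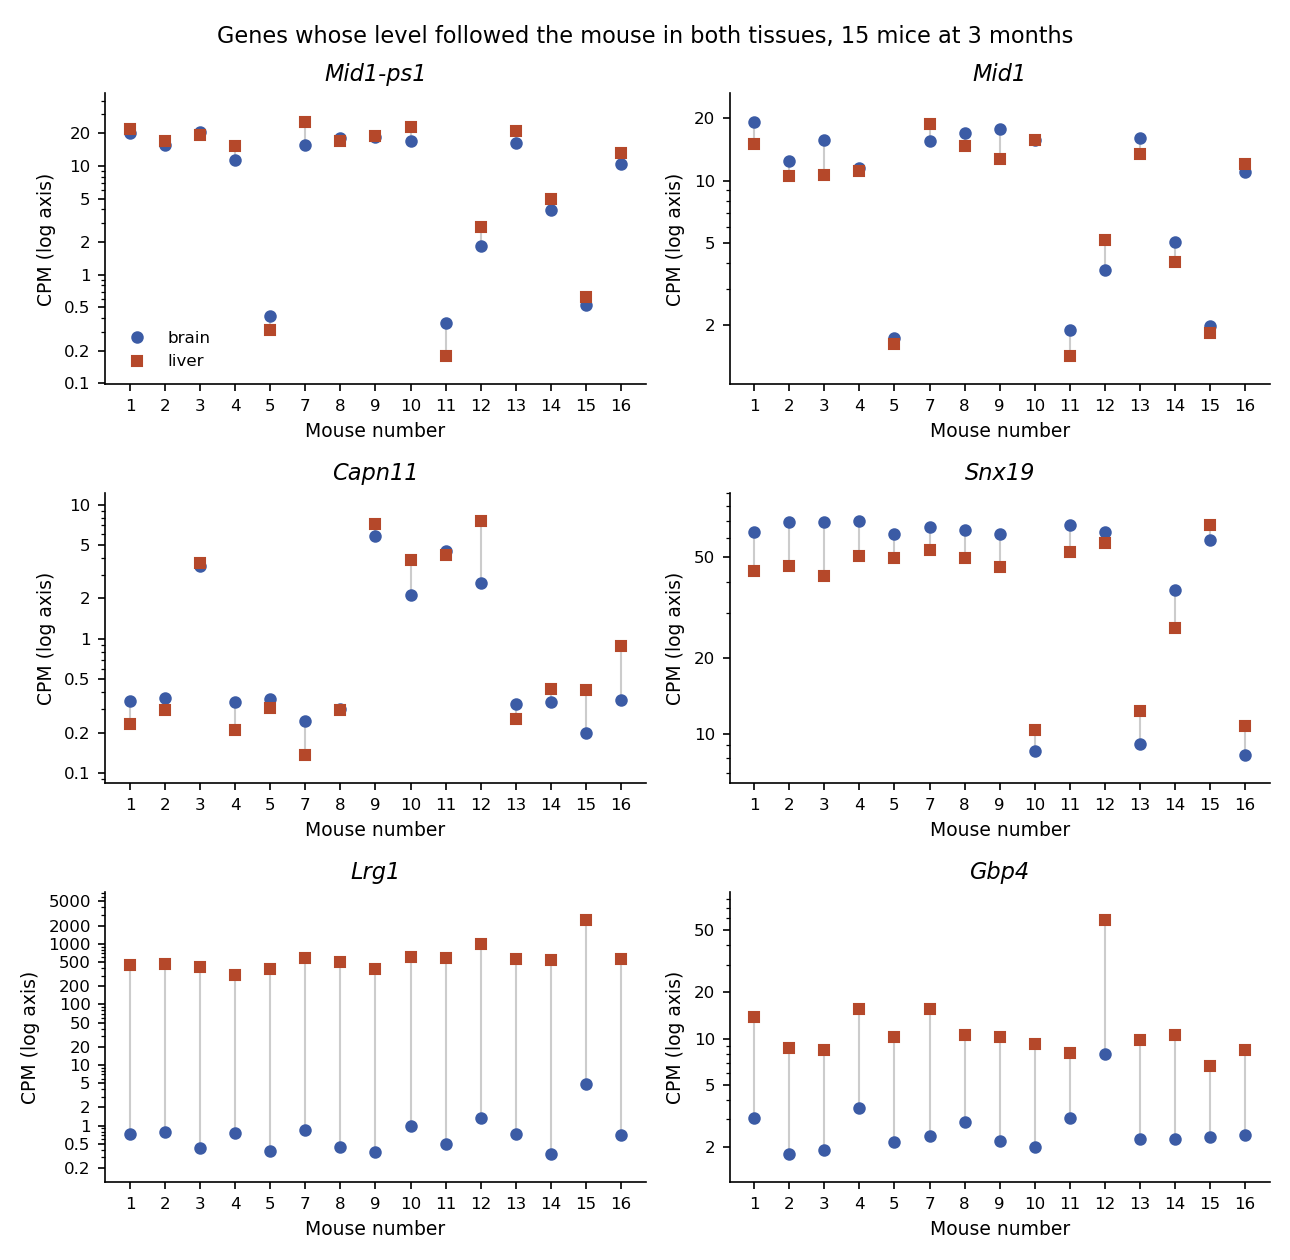
Level in CPM, on a log axis, of 6 genes in the brain (circles) and liver (squares) of each of 15 mice, joined by a line. Mice 5, 11 and 15 are low for Mid1-ps1 and Mid1 in both tissues, mice 10, 13 and 16 are low for Snx19, and 5 mice are high for Capn11, while Lrg1 and Gbp4 each have 1 mouse above the rest in both tissues.

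The difference between the tissues at 3 months was last set against that at 28 months, in 1 fit of 15 mice of 3 and 18 mice of 28 months. The change of the brain to liver difference was called at 5762 of 19535 genes (29.5%), with 1994 (10.2%) moved toward the brain and 3768 (19.3%) toward the liver. To sort genes without using either age, they were classed by 16 mice of 9 months. Of 4990 genes at least 4-fold higher in the brain at 9 months, 1499 moved toward the liver at 28 months and 111 toward the brain. Of 2806 genes at least 4-fold higher in the liver, 616 moved toward the brain and 324 toward the liver. In both classes, more of the called genes had a smaller difference between the tissues at 28 months than a larger one. Gstp1, a glutathione transferase of the liver, was at a mean of 2056 CPM in the livers of 3 months and 395 CPM in those of 28 months, beside 48.1 and 57.5 CPM in the brains, so the difference moved toward the brain by 2.63 ± 0.16 log2 units. Nebl, an actin-binding protein, was at 0.406 and 7.19 CPM in the livers and at 92.2 and 86.4 CPM in the brains, a move toward the liver of -4.18 ± 0.27.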

How the data were processed

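Polyadenylated RNA from brain and liver of 15 mice of 3 months was compared in pairs. The authors deposited whole-number counts per gene for each library, with no normalization. Per the submitters' processing notes, cutadapt 2.8, HISAT2 2.1.0, SAMtools 1.9 and featureCounts of Subread 2.0.1 were used with GRCm38.p6 (mm10). The strand setting, the treatment of reads that map to several places and the annotation release are not given in the sources used here, so counts of near-identical and of overlapping genes are uncertain.

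Genes with low counts were dropped with filterByExpr by tissue, which left 17890 of 55471 rows, and 55144 rows matched a symbol. The remaining counts were scaled by TMM and fitted with edgeR 4.0.16 (R 4.3.3, quasi-likelihood, a term for each mouse and 1 for tissue). The fit kept edgeR's default prior count. A prior count of 2 entered only the log2 CPM used for SDs and correlations. Adjusted p-values (Benjamini-Hochberg) under 0.05 were called. The 4-fold test was glmTreat at 2 log2 units. The pairs come from the same animal, whose deviations in brain and liver correlated at -0.29 to 0.16 (median 0.035), highest with the own mouse in 3 of 15. Alternatives were limma 3.58.1 (voom), DESeq2 1.42.0, other scalings and filters, and left-out mice.

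Named genes were the 10 of highest CPM in each tissue among those at least 4-fold higher there. They also included the largest fitted fold changes, and the most abundant genes at the floor in every library of the other tissue. Further ones were the most abundant alike genes, the most variable genes, all reference genes, and the leading members and exceptions of each list. Genes outside the rule, named after their values were seen, were Apoo, Ddc, Gabra6, Gh, Grm8, Maob, Prl, Rcor2, Rest, Slc16a6, Syn1, Th, Thrb and those of the mouse term; the 13 correlated genes were a list. Some genes that the rule names are not reported here. The members and lists were chosen with earlier results of these data known. TPM used exon lengths of the GENCODE M21 annotation. The floor of 3 counts covers counting error only, while the 95% intervals come from the fit over 15 mice.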

Additional observations from a re-analysis of the deposited data

Results flagged for a closer look

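The difference between brain and liver changed between 3 and 28 months at 5762 genes (edgeR's quasi-likelihood test of the interaction of tissue and age, Benjamini-Hochberg adjustment, 15 and 18 mice). The 8 genes named by rule are given with the change of the log2 brain to liver difference. Gstp1 changed by 2.63 ± 0.16 and Gstp-ps, a pseudogene that may share its reads, by 2.77 ± 0.22. Gm16551 changed by 3.18 ± 0.27, from a liver mean of 20.7 CPM at 3 months to one of 3.03 CPM at 28 months, while its brain means were 0.496 and 0.645 CPM. Srd5a1, a steroid reductase, changed by 2.32 ± 0.20, with liver means of 120 and 27.7 CPM and brain means of 6.04 and 6.21 CPM. In the other direction, Nebl changed by -4.18 ± 0.27 and Noct, nocturnin, whose RNA follows the circadian clock, by -3.65 ± 0.27, with Noct liver means of 18.3 and 191 CPM and brain means of 48.1 and 45.0 CPM. Emp2, a membrane protein, changed by -1.45 ± 0.12, from means of 20.3 and 19.8 CPM in brain and liver at 3 months to 13.8 and 36.6 CPM at 28 months. Folh1, a peptidase, changed by -5.49 ± 0.46, with liver means of 0.0154 and 0.872 CPM and brain means near 4 CPM (4.13 and 4.15).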

How the results depend on the processing

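With genes of a mean of at least 1 CPM in both tissues only, 11186 genes were tested. Of these 10205 were called, 5197 of them higher in the brain, and 2494 were at least 4-fold apart (1296 brain, 1198 liver). This filter leaves out every gene that is near 0 in 1 tissue. Under library size alone, 4730 genes were higher in the liver. Genes within 0.5 log2 units numbered 1321, 1129 and 1366 in preparations 1, 2 and 3 alone, with fewer mice. Leaving out 1 mouse at a time gave 16463 to 16630 called genes, 7534 to 7634 at least 4-fold apart and 2101 to 2170 within 0.5 log2 units.

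Without the replicate block, 16603 genes were called and 7573 were at least 4-fold apart, and the pairing changed neither count by over 1.5 times. DESeq2 called 16618 and limma voom 16576.

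Only genes of the rule, lists and pairs that are named here were checked for a turn of sign. The sign turned under library size alone for Actb (0.54), Apoo (0.76), Gapdh (0.65), Igf2r (0.04), Ppia (0.47), Reln (0.27), Sall1 (0.11), Thrb (0.16), Eno1 (0.60), Hsp90ab1 (0.73), Glul (0.74), Gabarapl1 (0.59) and Mid1-ps1 (0.61). With at least 1 CPM in both tissues it turned for Gapdh (0.01). Under library size alone only the scaling changed, while the filter changed the genes tested as well; which zero point is right was not tested. Depth limits statements on genes near the floor of 3 counts.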
